A study of Mus musculus with 18 samples.

Results

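The 10 genes described here are Yap1, Wwtr1, Tead1, Tead3, Stk3, Stk4, Sav1, Lats1, Mob1a and Nf2, the core of the Hippo pathway and its nuclear effectors. They were taken by symbol from the mouse liver panel, and each is 1 of the 23930 genes it lists, read through 1 amplicon. All 10 had at least 1 CPM (reads of a gene scaled by the total reads of its library) in at least 3 libraries, as did 11720 genes in all. Wwtr1 encodes the protein called TAZ, and the panel's separate gene Taz (tafazzin) was not used.

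All mice were Yap fl/fl, so the controls carried the floxed alleles too, and each received a virus with the hepatocyte promoter TBG at 8 weeks of age. AAV-TBG-GFP made the controls, AAV-TBG-Cre the hepatocyte Yap knockout, and AAV-TBG-YAP-P2A-EGFP the hepatocyte YAP overexpression. The virus dose was 0.5 for Cre and 2 for the others, in the same multiple of genome copies per mouse. Dose and genotype thus cannot be told apart in any comparison of the knockout with another genotype. After 2 weeks, mice had 5 days on a control liquid diet and then 4 weeks on an ethanol liquid diet or on the control diet as pair-fed mice, with 1 gavage 9 hours before death, of maltose-dextrin for pair-fed mice and of 5 g/kg ethanol (33% v/v) for the others. Each of the 6 groups had 3 libraries of whole liver. The title of the series names YAP activation, ER stress and ATF6, and the comparisons below ask how the pathway's own transcripts stood in each genotype and diet. Nothing in the labels says that the replicates are separate animals, so p-values measure the spread between libraries.

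In the Hippo pathway the kinases MST1 and MST2 (Stk4 and Stk3), held by the scaffold SAV1, phosphorylate the kinases LATS1 and LATS2 and their partner MOB1, with merlin (Nf2) bringing the LATS kinases to the membrane. Active LATS phosphorylates YAP and TAZ, which are then kept in the cytoplasm or degraded. Unphosphorylated YAP and TAZ enter the nucleus and act as coactivators on TEAD factors, a system known in liver for the control of organ size and of biliary and hepatocyte fate. The control is largely by phosphorylation, so transcript levels do not measure the pathway's activity.

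Promoters of 8 of the 10 genes were held in the RefSeq table of build GRCm38.p6, with 12 start sites in all, and Tead1 and Stk3 had no entry. The letters GGAATG, a core of TEAD binding sequences, were searched on both strands (CATTCC on the other) in the 250 bases before each start. They occurred at 7 of the 12 starts, in 5 genes (Yap1, Wwtr1, Tead3, Sav1 and Mob1a), and at none of the starts of Stk4, Lats1 and Nf2. The windows of the 2 Wwtr1 starts overlap and hold the same match, 136 and 170 bases before the start, so it was counted at both. Of all 32851 starts in the table, 12.64% held them. The sequences of 3 genes are shown because the study altered Yap1 and because Wwtr1 and Sav1 had the lowest adjusted p after Yap1 when overexpression was set against knockout over both diets. The capitals mark the searched letters, which are a match of letters and not a measured binding site.
Yap1: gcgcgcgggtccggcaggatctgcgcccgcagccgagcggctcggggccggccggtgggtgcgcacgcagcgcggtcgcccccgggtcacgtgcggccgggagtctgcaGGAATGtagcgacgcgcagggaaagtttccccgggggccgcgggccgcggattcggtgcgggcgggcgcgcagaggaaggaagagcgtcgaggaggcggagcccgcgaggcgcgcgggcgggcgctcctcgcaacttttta
Wwtr1: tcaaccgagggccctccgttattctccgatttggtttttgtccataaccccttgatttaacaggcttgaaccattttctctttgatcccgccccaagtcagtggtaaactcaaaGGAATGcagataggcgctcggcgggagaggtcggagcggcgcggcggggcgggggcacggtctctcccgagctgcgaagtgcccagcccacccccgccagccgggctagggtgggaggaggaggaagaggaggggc
Sav1: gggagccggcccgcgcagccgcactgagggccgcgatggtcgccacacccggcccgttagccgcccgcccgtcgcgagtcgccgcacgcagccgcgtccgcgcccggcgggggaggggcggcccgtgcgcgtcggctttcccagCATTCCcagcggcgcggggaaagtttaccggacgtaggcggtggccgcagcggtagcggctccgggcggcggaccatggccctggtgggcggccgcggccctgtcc
The Yap1 sequence is chr9:8004597-8004846 on the minus strand, with the match starting 141 bases before the start site. The Wwtr1 sequence, at the first of 2 listed starts, is chr3:57575911-57576160 on the minus strand, with the match 136 bases before the start. The Sav1 sequence is chr12:69987003-69987252 on the minus strand, with the match on the other strand. The virus carried YAP under TBG, so the promoter of Yap1 shown here is that of the endogenous gene alone.

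The libraries held 4680151 to 5806228 reads, and 1 read was worth 0.172 to 0.214 CPM. Xist was above the Y-linked Ddx3y in 5 libraries, 2 of pair-fed controls and all 3 of pair-fed knockouts, and Ddx3y was above Xist in the other 13. Ethanol-fed libraries of all genotypes thus share 1 pattern. The ethanol response of the knockout, and pair-fed overexpression against knockout, cannot be told apart from this pattern. Ethanol in controls, the pair-fed comparisons with control, and the means over diets or genotypes are partly mixed with it. Within a group the pattern varied only in pair-fed controls, with Xist above in 2 of 3 libraries. A term for it thus rests on those 3 libraries, and calls lost with that term do not separate the pattern from diet or genotype. The summed level of 7 hepatocyte markers was 40486 to 45103 CPM in ethanol-fed overexpression against 53547 to 68777 in ethanol-fed controls. Hepatocyte markers were present throughout, with Alb at 23604 CPM or more in each library. The summed level of 7 Kupffer cell and macrophage markers, of which C1qa was listed at 0 in 16 libraries, was 139.5 to 177.7 CPM in ethanol-fed knockouts against 241.8 to 444.0 in ethanol-fed controls. The 5 neutrophil markers summed to at most 38.8 CPM and the 5 matched lymphocyte markers to at most 6.09 CPM in any library. In whole liver, fewer cells of a type and less RNA per cell cannot be told apart. Levels are compared within a gene and never between genes, since the values are not per length.

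Yap1, the coactivator the study altered, was lowest in the knockout, intermediate in controls and highest in most overexpression libraries. Pair-fed controls held 60.7, 51.5 and 53.9 CPM and ethanol-fed controls 62.5, 66.6 and 58.1 CPM. Pair-fed knockouts held 15.1, 6.20 and 4.18 CPM and ethanol-fed knockouts 4.76, 3.34 and 5.08 CPM. Pair-fed overexpression libraries held 57.6, 154.6 and 214.1 CPM and ethanol-fed ones 143.7, 115.3 and 106.4 CPM. All 6 knockout libraries lay below every other library, and 5 of the 6 overexpression libraries lay above every control. The exception was replicate 1 of pair-fed overexpression, whose 57.6 CPM fell inside the control range. Which exon the Yap1 amplicon lies in, whether Cre removes it and whether it reads the YAP of the virus were not stated.

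In ethanol-fed livers Yap1 in the knockout stood at 7.04% of the control mean, with single libraries at 5.35 to 8.13%. In pair-fed livers it stood at 15.35%, with single libraries at 7.55 to 27.31%. Changes are given as differences of log2(CPM + 1) with their standard error, from one limma fit of all 18 libraries with Benjamini-Hochberg adjustment over the 11720 genes, and an adjusted p under 0.05 is called. Yap1 fell by 3.57 ± 0.38 in the ethanol-fed knockout (adjusted p = 0.000177) and by 2.74 ± 0.38 in the pair-fed knockout (adjusted p = 0.00945), in 3 of 3 libraries each. It was the member called in each of these comparisons, 1 of 10, where 0.0171% and 0.00853% of all genes were called. The pair-fed call of Yap1 was lost with a pseudocount of 10 (adjusted p = 0.0736), in the fit of the compared libraries alone (0.327), with a term for the Xist pattern (fell by 2.67, adjusted p = 0.0918), and without control replicate 1 or 3 or knockout replicate 2 or 3 of the pair-fed groups (adjusted p = 0.0564 to 0.137).

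The mean of Yap1 in overexpression was 2.57 times the pair-fed and 1.95 times the ethanol-fed control mean, and neither difference passed the threshold. It was 1.15 ± 0.38 on the log2 scale in pair-fed livers (adjusted p = 0.342) and 0.94 ± 0.38 in ethanol-fed livers (adjusted p = 0.449). No member was called in either comparison, where 0.145% and 0.102% of all genes were called. In the ethanol-fed groups the lowest overexpression library, 106.4 CPM, was above the highest control, 66.6 CPM. Replicate 1 of pair-fed overexpression was the lowest overexpression library in Yap1. Leaving it out must raise the Yap1 difference, so the values without it are not a test of a rise. Without that replicate the mean over both diets, a contrast added after the values were seen, was 1.32 with adjusted p = 0.0205, against 1.05 and adjusted p = 0.151 with it. That mean called 0 members in 29 of 31 alternatives. For pair-fed livers alone that difference was 1.70 without the library (adjusted p = 0.0569), and DESeq2 on all libraries gave 1.36 (adjusted p = 0.0315).

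The difference between overexpression and knockout was called for Yap1 on both diets. It was higher in overexpression by 4.51 ± 0.38 in ethanol-fed livers (adjusted p = 3.83e-06) and by 3.89 ± 0.38 in pair-fed livers (adjusted p = 2.23e-05), with 3 of 3 libraries above in each. Yap1 was again 1 of 10 members called, against 1.88% and 1.37% of all genes. With a term for the Xist pattern the pair-fed value for Yap1 was 3.69 with adjusted p = 0.198. The ethanol-fed calls of Yap1, against control and against overexpression, were kept in all 31 alternatives.

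**Figure D1:**
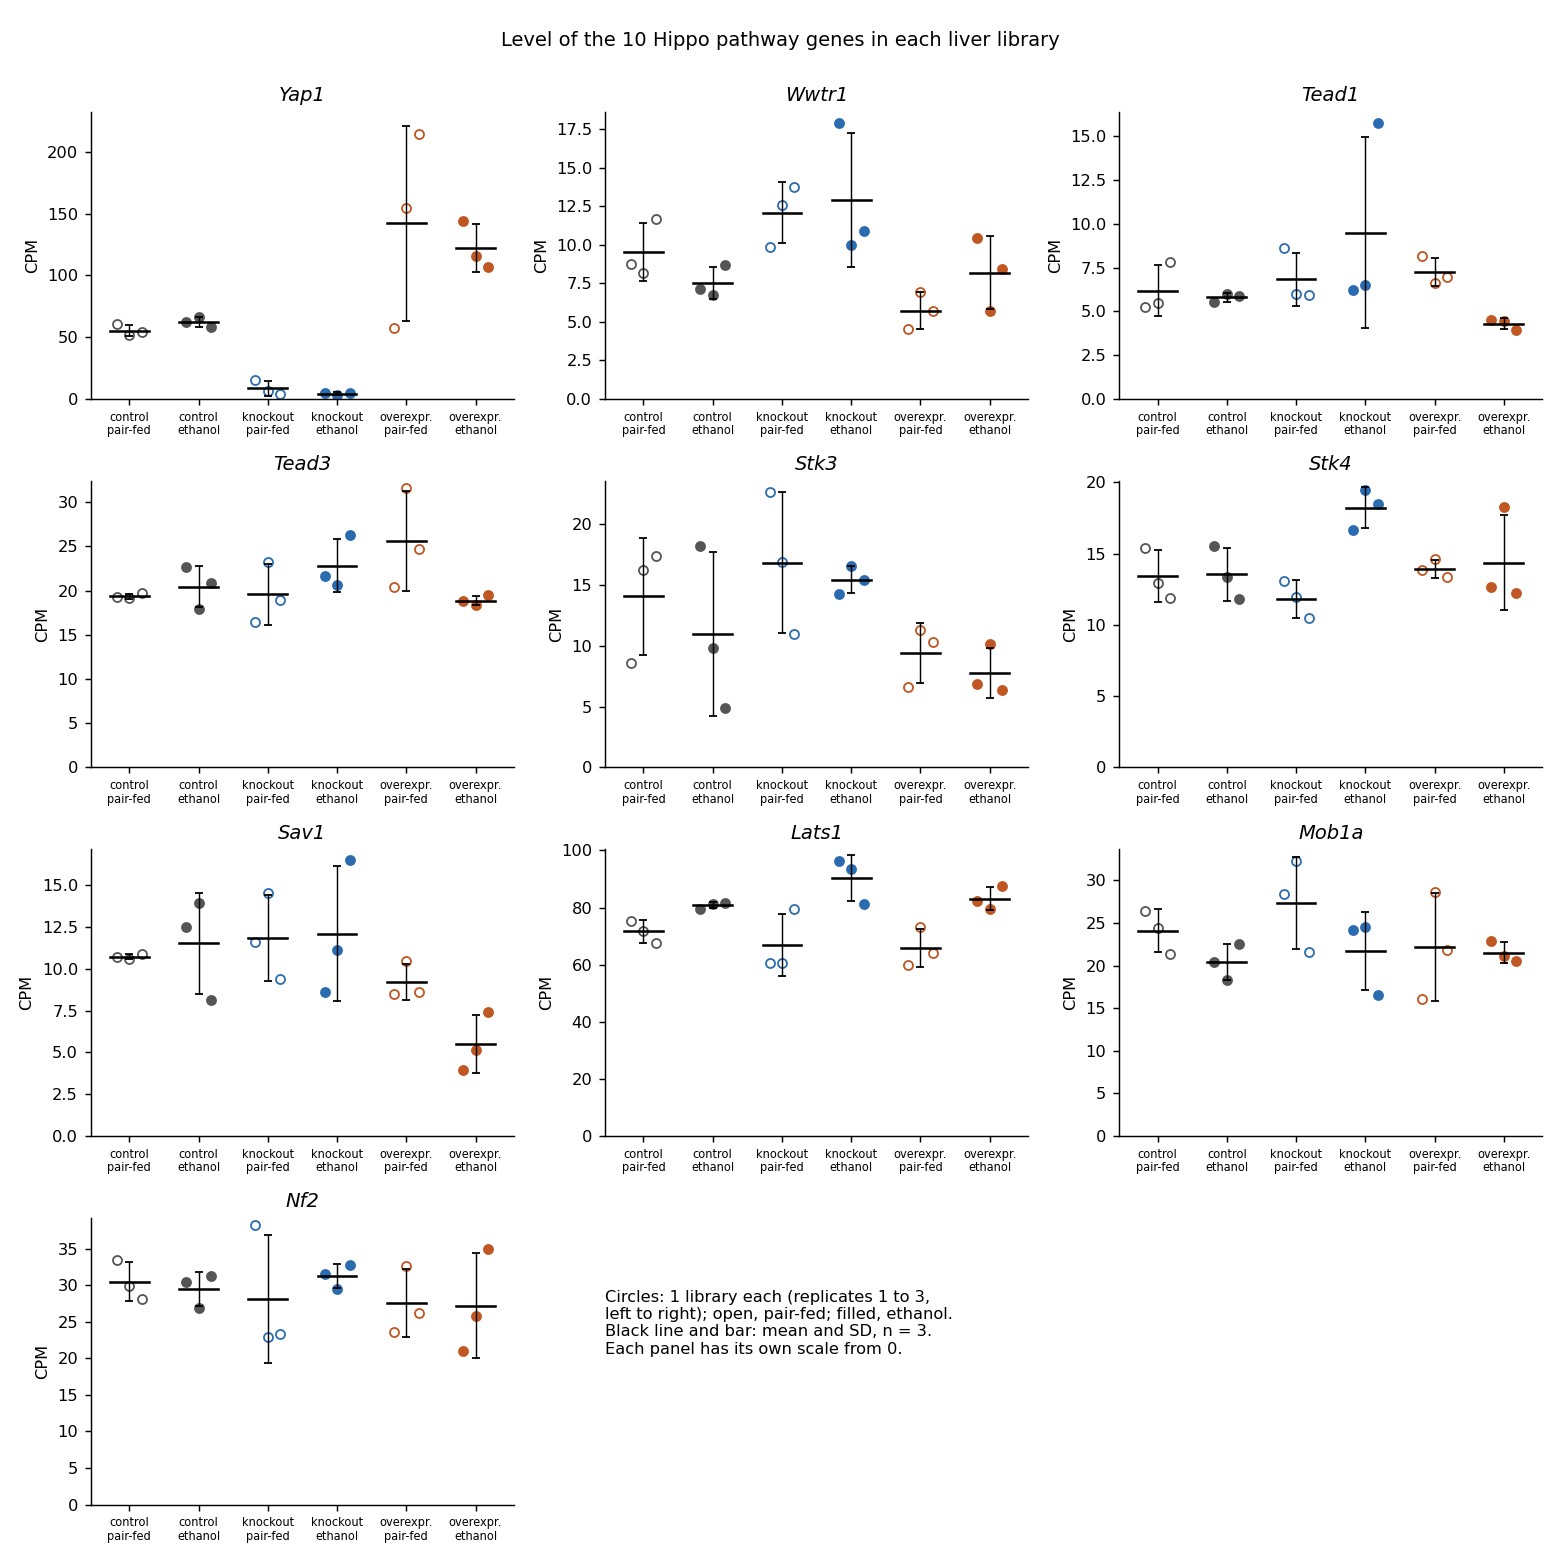
CPM of the 10 genes in each of the 18 libraries, with 1 panel per gene on its own scale from 0, open circles for pair-fed, filled circles for ethanol-fed, and the mean and SD of 3 libraries in black. Yap1 separates the genotypes except for 1 pair-fed overexpression library at 57.6 CPM, Sav1 is lowest in ethanol-fed overexpression (3.97 to 7.41 CPM), and Lats1 is higher on ethanol in each genotype.

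Wwtr1 encodes TAZ, the paralog of YAP that binds the same TEAD factors. Controls held 8.75, 8.21 and 11.7 CPM when pair-fed and 7.13, 6.76 and 8.68 CPM on ethanol. Knockouts held 9.90, 12.6 and 13.8 CPM when pair-fed and 17.9, 10.0 and 10.9 CPM on ethanol. Overexpression libraries held 4.54, 6.96 and 5.68 CPM when pair-fed and 10.5, 5.71 and 8.44 CPM on ethanol. In ethanol-fed livers each knockout library was above each control, while the overexpression libraries overlapped the controls and had a slightly higher mean (8.21 against 7.52 CPM). In pair-fed livers each overexpression library was below each control, while the knockouts overlapped the controls.

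No difference of Wwtr1 within a diet passed the threshold. The ethanol-fed knockout was 0.67 ± 0.26 above control (adjusted p = 0.526), and the pair-fed overexpression differed from control by -0.65 ± 0.26 (adjusted p = 0.498). Set against the knockout, overexpression gave -0.96 ± 0.26 in pair-fed livers (adjusted p = 0.0836) and -0.59 ± 0.26 in ethanol-fed livers (adjusted p = 0.287). The mean of these 2 differences, a contrast added after the values were seen, was -0.78 ± 0.19 (adjusted p = 0.0311), so that Wwtr1 was lower in overexpression than in knockout. The pair-fed part of this mean, the larger of the 2, cannot be told apart from the Xist pattern. Wwtr1 and Yap1 were then 2 of 10 members called, where 2.72% of all genes were called. The Wwtr1 call was kept in 21 of 31 alternatives, with a range of -0.90 to -0.41 for the difference over settings, and was lost with no filter (adjusted p = 0.0622), with quantile normalization (0.0582) and with the term for the Xist pattern (0.627). It was also lost without replicate 2 or 3 of pair-fed knockout, replicate 1 of ethanol-fed knockout, replicate 1 or 3 of pair-fed overexpression, or replicate 2 or 3 of ethanol-fed overexpression, with adjusted p = 0.0579 to 0.0823.

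TEAD1 and TEAD3 are DNA-binding partners of YAP and TAZ. Tead1 held 5.25, 5.47 and 7.84 CPM in pair-fed controls and 5.52, 5.99 and 5.90 CPM in ethanol-fed controls. In knockouts it held 8.59, 5.98 and 5.92 CPM when pair-fed and 6.23, 6.49 and 15.8 CPM on ethanol. In overexpression it held 8.14, 6.61 and 6.97 CPM when pair-fed and 4.51, 4.42 and 3.96 CPM on ethanol. The 3 ethanol-fed overexpression libraries were the lowest of all 18, while the ethanol-fed knockout rests on 1 high library, replicate 3.

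Tead1 gave -0.87 ± 0.28 between ethanol-fed overexpression and knockout (adjusted p = 0.128) and -0.63 ± 0.28 between ethanol-fed and pair-fed overexpression (adjusted p = 0.308). Tead3 ran from 16.4 to 31.7 CPM over all libraries, with group means of 18.9 ± 0.53 (SD, n = 3) in ethanol-fed overexpression to 25.6 ± 5.65 in pair-fed overexpression. Its largest difference between 2 groups, -0.40 ± 0.19 between those 2 groups, had adjusted p = 0.351. Neither TEAD gene passed the threshold in any comparison.

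Stk3 (MST2) was the member with the widest spread within groups after Yap1. Pair-fed controls held 8.58, 16.2 and 17.4 CPM and ethanol-fed controls 18.2, 9.85 and 4.86 CPM. Knockouts held 22.6, 16.9 and 10.97 CPM when pair-fed and 14.3, 16.5 and 15.4 CPM on ethanol. Overexpression libraries held 6.63, 11.3 and 10.3 CPM when pair-fed and 6.86, 10.1 and 6.37 CPM on ethanol. Every ethanol-fed knockout library was above every ethanol-fed overexpression library, and the controls covered both ranges. The difference of overexpression from knockout was -0.92 ± 0.37 on ethanol (adjusted p = 0.217), -0.75 ± 0.37 in pair-fed livers (adjusted p = 0.357) and -0.84 ± 0.26 as their mean (adjusted p = 0.0869).

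Stk4 (MST1), the paralogous kinase, held 13.1, 11.97 and 10.4 CPM in pair-fed knockouts and 16.7, 19.5 and 18.5 CPM in ethanol-fed knockouts. The other 4 groups had means of 13.4 to 14.4 CPM, and of their 12 libraries 11 lay below the lowest ethanol-fed knockout. The ethanol-fed knockout was 0.59 ± 0.20 above its pair-fed group (adjusted p = 0.0688) and 0.41 ± 0.20 above ethanol-fed control (adjusted p = 0.614). The first of these passed with edgeR (0.69, adjusted p = 0.0342) and DESeq2 (0.67, adjusted p = 0.0334) on the recovered reads, and with the term for the Xist pattern Stk4 gave 0.29 with adjusted p = 0.912.

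Sav1, the scaffold of the MST kinases, was lowest in ethanol-fed overexpression, with 3.97, 5.16 and 7.41 CPM. Pair-fed overexpression held 8.52, 10.4 and 8.62 CPM. Controls held 10.7, 10.6 and 10.9 CPM when pair-fed and 12.5, 13.9 and 8.16 CPM on ethanol. Knockouts held 11.6, 14.5 and 9.41 CPM when pair-fed and 8.61, 11.1 and 16.5 CPM on ethanol, so the 3 ethanol-fed overexpression libraries lay below the other 15. The mean of ethanol-fed overexpression was 47.89% of the ethanol-fed control mean.

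None of the Sav1 differences passed the threshold in the limma fit. Ethanol-fed overexpression differed from ethanol-fed control by -0.95 ± 0.27 (adjusted p = 0.212), from ethanol-fed knockout by -0.996 ± 0.267 (adjusted p = 0.0601) and from pair-fed overexpression by -0.67 ± 0.27 (adjusted p = 0.242). DESeq2 gave -1.09 against the knockout with adjusted p = 0.0281. The hepatocyte marker sum of ethanol-fed overexpression (40486 to 45103 CPM) was below that of ethanol-fed controls (53547 to 68777) and knockouts (50592 to 64656). It overlapped that of pair-fed overexpression (40425 to 49072 CPM). The part of this sum in the Sav1 differences was not tested.

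Lats1, the kinase that phosphorylates YAP and TAZ, had the smallest spread of the 10 genes within groups. Controls held 75.4, 71.7 and 67.7 CPM when pair-fed and 79.6, 81.1 and 81.7 CPM on ethanol. Knockouts held 60.7, 60.5 and 79.4 CPM when pair-fed and 96.2, 93.5 and 81.2 CPM on ethanol. Overexpression libraries held 60.0, 73.2 and 64.2 CPM when pair-fed and 82.2, 79.6 and 87.7 CPM on ethanol. In each genotype the 3 ethanol-fed libraries lay above the 3 pair-fed ones. The gap was narrow in knockouts, with 81.2 CPM (448 reads) on ethanol against 79.4 CPM (456 reads) when pair-fed.

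Within a genotype the difference of Lats1 was 0.17 ± 0.15 in controls (adjusted p = 0.582), 0.44 ± 0.15 in knockouts (adjusted p = 0.0686) and 0.34 ± 0.15 in overexpression (adjusted p = 0.300). The mean over the 3 genotypes, added after the values were seen, was 0.32 ± 0.09 with adjusted p = 0.0139, and Lats1 rose. It was 1 of 10 members called, where 20.5% of all genes were called. The call was kept in 30 of 31 alternatives and lost with the term for the Xist pattern (0.25, adjusted p = 0.513). In the overexpression groups, which share 1 Xist pattern, the ethanol-fed libraries (79.6 to 87.7 CPM) did not overlap the pair-fed ones (60.0 to 73.2 CPM). Such a gap held for 22.4% of all genes in that comparison, and Lats1 was not called there. The part of the Xist pattern in the mean over genotypes was not tested.

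Mob1a, the coactivator of LATS kinases, ran from 16.1 to 32.3 CPM, with group means of 20.5 ± 2.10 CPM (SD, n = 3) in ethanol-fed controls to 27.4 ± 5.40 CPM in pair-fed knockouts. Nf2, which encodes merlin, ran from 20.9 to 38.3 CPM, with group means of 27.2 ± 7.12 CPM in ethanol-fed overexpression to 31.3 ± 1.67 CPM in ethanol-fed knockouts. The ranges of neighbouring groups overlapped for both. Among the comparisons of 2 groups, the largest difference of Mob1a was -0.33 ± 0.22 for ethanol in knockouts (adjusted p = 0.368), with a 95% interval of -0.79 to 0.14. For Nf2 it was -0.22 ± 0.22 between ethanol-fed overexpression and knockout (adjusted p = 0.683), with an interval of -0.67 to 0.23.

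**Figure D2:**
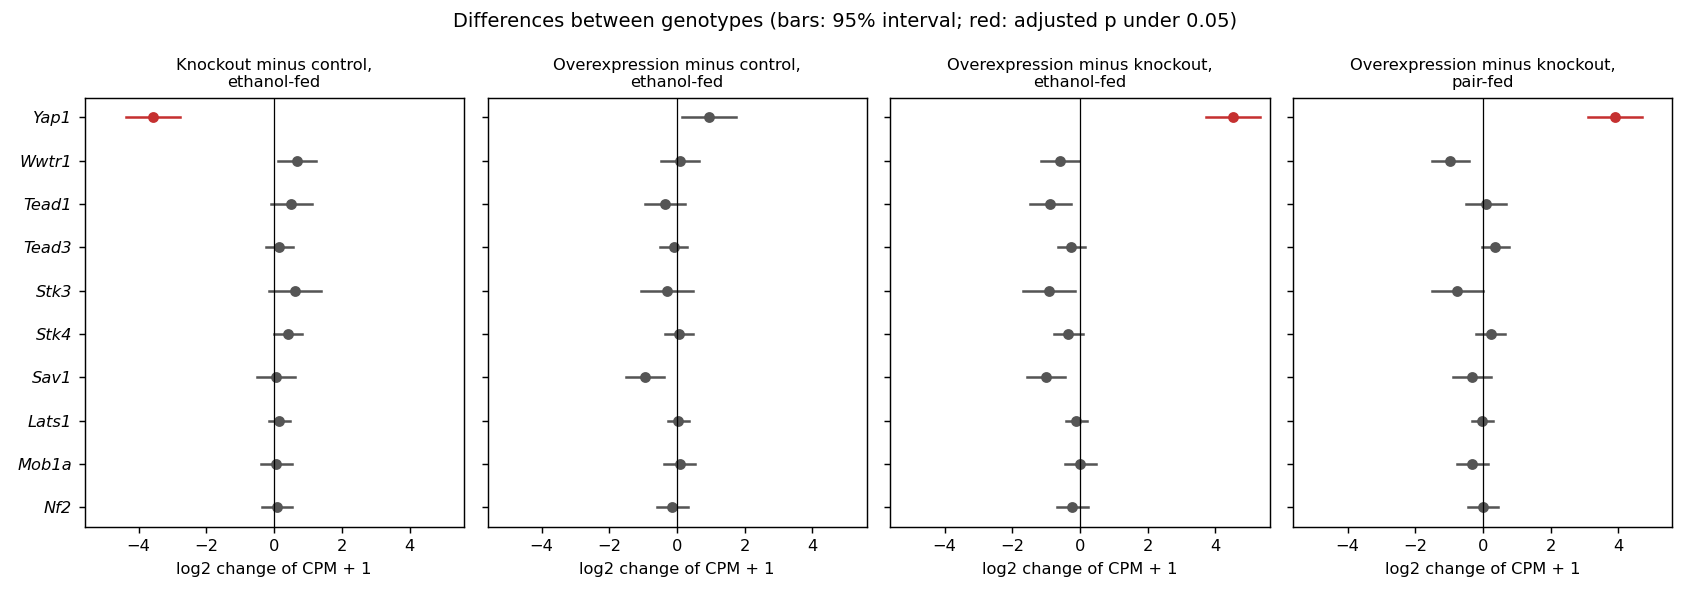
Differences of log2(CPM + 1) between genotypes for the 10 genes, as points with 95% intervals from the limma fit, in 4 comparisons that share libraries; red marks an adjusted p under 0.05. Yap1 is the single red gene, from -3.57 in ethanol-fed knockout against control to 4.51 in ethanol-fed overexpression against knockout, and Sav1 stands at -0.95 and -0.996 in the ethanol-fed overexpression comparisons.

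As a group, the members were read by how many had 3 libraries of one group wholly on one side of the other. For ethanol-fed knockout against control this held for 4 of 10, with Wwtr1, Tead1 and Stk4 above and Yap1 below, where it held for 13.4% of all genes. For ethanol-fed overexpression against control it held for 3 of 10, with Yap1 above and Tead1 and Sav1 below, against 15.0% of all genes. For ethanol-fed overexpression against knockout it held for 5 of 10, with Yap1 above and Tead1, Tead3, Stk3 and Sav1 below, against 21.4%. These 3 comparisons share groups, so their counts are not independent. Yap1, which the study altered, is among the members counted. Narrow gaps count too, as for Tead1 in knockout (lowest 6.23 CPM, 34 reads) against control (highest 5.99 CPM, 31 reads). In the same ethanol-fed libraries the summed Kupffer cell and macrophage markers were lowest in the knockout and the summed hepatocyte markers lowest in overexpression, and their part in these differences was not tested. The median difference of the members in overexpression against knockout was -0.30, and that of all genes tested was -0.05.

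In pair-fed livers the same count was 1 of 10 for knockout against control (Yap1, against 7.06% of all genes). It was 3 of 10 for overexpression against control, with Tead3 above and Wwtr1 and Sav1 below, against 13.8% of all genes. It was 3 of 10 for overexpression against knockout, with Yap1 and Stk4 above and Wwtr1 below, against 19.5%. Gaps were narrow for Sav1, with 10.43 CPM (60 reads) in overexpression against 10.58 CPM (58 reads) in control. The same held for Stk4, with 13.38 CPM (73 reads) in overexpression against 13.07 CPM (70 reads) in knockout. Of the 6 pair-fed control and knockout libraries 5 had Xist above Ddx3y and no overexpression library did. For overexpression against knockout this pattern and the genotype cannot be told apart. The part of the pattern in the other pair-fed counts was not tested.

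Ethanol called no member within a genotype, where 2.70% of all genes were called in controls, 9.90% in knockouts and 1.15% in overexpression. Without overlap stood 1 of 10 members in controls (Lats1, against 22.1% of all genes), 2 of 10 in knockouts (Stk4 and Lats1, against 28.5%) and 4 of 10 in overexpression (Lats1 above, Tead1, Tead3 and Sav1 below, against 22.4%). For Yap1 itself the ethanol difference was 0.17 ± 0.38 in controls, -0.66 ± 0.38 in knockouts and -0.04 ± 0.38 in overexpression, with adjusted p = 0.861, 0.282 and 0.982. The ethanol response differed between knockout and control, or between overexpression and control, for 0 members and 0 of all genes (0%) in the limma interaction test, while 666 and 847 genes (5.68% and 7.23%) had an unadjusted p under 0.05. DESeq2 called 2 and 59 genes in these tests and no member, and leaving out 1 library called 0 to 3 and 0 to 27 genes by limma. The largest member values in these tests were -0.83 ± 0.54 for Yap1 in knockout minus control (adjusted p = 0.916), and -0.74 ± 0.38 for Sav1 and 0.73 ± 0.37 for Wwtr1 in overexpression minus control (both adjusted p = 0.722).

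Over the 18 libraries, Yap1 and Wwtr1 had a Pearson r of -0.71 on the log2 scale, 25th from the bottom of the 8456 genes with a mean of at least 5 CPM. The deviations from the group means had r = 0.08, so the relation was seen between groups and not among the libraries of a group. Stk3 had r = -0.51, Sav1 r = -0.48 and Tead1 r = -0.42 with Yap1, and the other 5 members lay between -0.20 and 0.04. The highest r with Yap1 were those of Tlr12 (0.78), Ifi27 (0.78) and Clpp (0.77), and the lowest those of Rora (-0.79), Smlr1 (-0.78) and Arap2 (-0.77). These values describe libraries that share a scale and fall into clusters by genotype, and no test is given. Tlr12 held 1.63 to 4.64 CPM in ethanol-fed knockouts and 16.9 to 59.8 CPM in the overexpression libraries. Pair-fed knockouts held 7.47 to 12.5 CPM, inside the control range of 5.35 to 29.6 CPM, which the overexpression range overlapped too. The deviations of Tlr12 from its group means had r = 0.17 with those of Yap1.

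**Figure D3:**
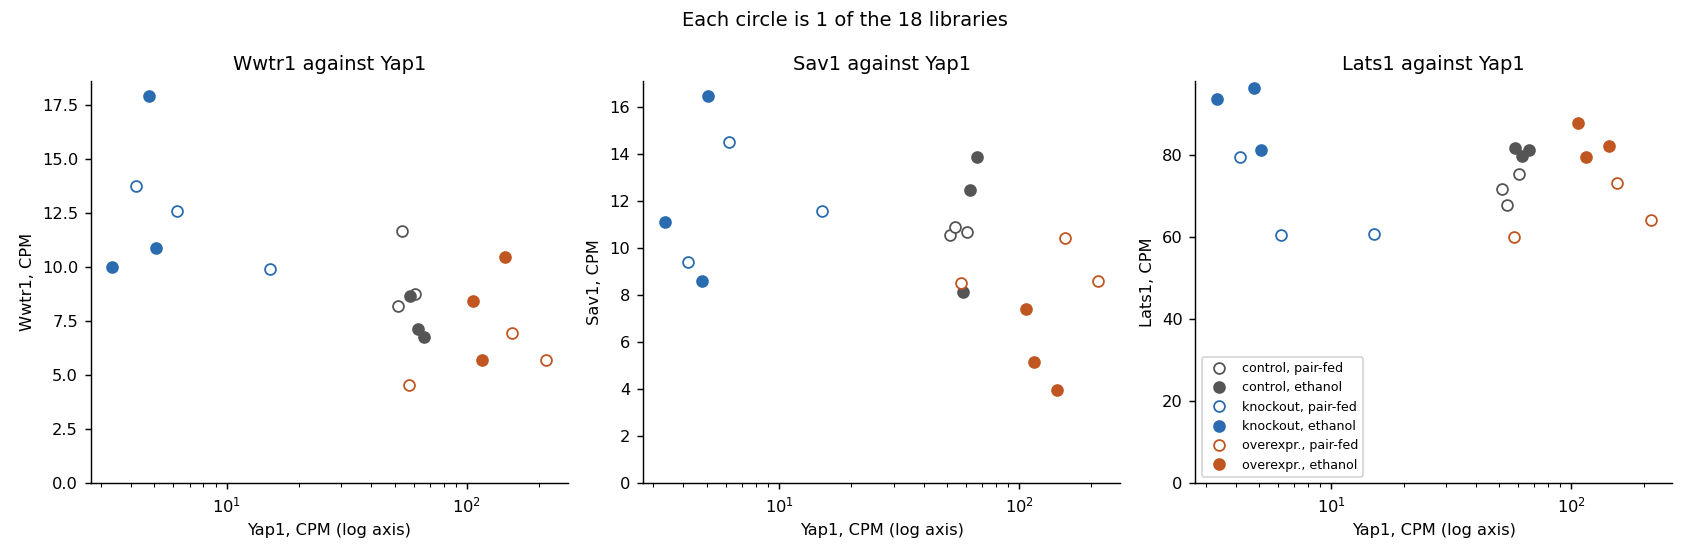
Wwtr1, Sav1 and Lats1 (CPM, axis from 0) against Yap1 (CPM, log axis) with 1 circle per library, open for pair-fed and filled for ethanol-fed, grey for control, blue for knockout and orange for overexpression. Wwtr1 is 9.90 to 17.9 CPM in the 6 knockout libraries and 4.54 to 10.5 CPM in the 6 overexpression libraries, and the low Sav1 values are those of ethanol-fed overexpression. Lats1 is at most 79.42 CPM in pair-fed and at least 79.57 CPM in ethanol-fed libraries, a narrow gap.

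The rest of the pathway was read from a list of 71 further genes, of which 67 were on the panel and 63 passed the filter. By limma 0 of the 63 were called in knockout against control or overexpression against control on either diet, where at most 0.145% of all genes were called. Ethanol called 2 lower in controls, 3 higher and 3 lower in knockouts, and 2 lower in overexpression. Overexpression against knockout called 1 lower in pair-fed livers, and 1 higher and 1 lower in ethanol-fed livers. Of all genes, this comparison called 0.657% higher and 0.708% lower in pair-fed livers, and 0.529% and 1.35% in ethanol-fed livers. Of all genes, ethanol called 1.02% higher and 1.67% lower in controls, 4.10% and 5.79% in knockouts, and 0.401% and 0.751% in overexpression. The median difference of the wider list for ethanol was -0.03 in controls, -0.0029 in knockouts and -0.10 in overexpression, and that of all genes tested was -0.09, -0.05 and -0.07.

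Amotl2, an angiomotin-family scaffold that binds YAP at junctions and is itself a YAP target, fell on ethanol in each genotype. It held 63.4, 44.7 and 62.0 CPM in pair-fed controls and 14.97, 19.5 and 32.3 CPM on ethanol. In knockouts it held 36.2, 60.9 and 61.8 CPM and then 19.6, 16.0 and 29.0 CPM, and in overexpression 92.0, 92.5 and 99.9 CPM and then 48.6, 37.8 and 32.7 CPM. No ethanol-fed library reached the pair-fed range of its genotype. Amotl2 fell by 1.36 ± 0.27 in controls (adjusted p = 0.0120), 1.26 ± 0.27 in knockouts (adjusted p = 0.00722) and 1.25 ± 0.27 in overexpression (adjusted p = 0.0306). With the Xist term the adjusted p was 0.135 in controls and 0.460 in knockouts, and in controls it was 0.0637 without ethanol-fed replicate 2 and 0.0524 with the compared libraries alone. In overexpression Amotl2 had adjusted p = 0.0650 with TMM factors, 0.0637 with edgeR, 0.0704 with no filter and 0.0703 with quantile normalization, and 0.0702 to 0.148 without any 1 of pair-fed replicates 1 to 3 or ethanol-fed replicates 2 and 3. Ethanol-fed knockout and control differed by -0.02 ± 0.27 (adjusted p = 0.992), with a 95% interval of -0.59 to 0.55.

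Vgll4, which competes with YAP for TEAD factors, fell on ethanol in overexpression and in knockouts. Overexpression libraries held 22.3, 19.0 and 18.2 CPM when pair-fed and 9.03, 9.39 and 9.30 CPM on ethanol, the 3 lowest values of all 18. Vgll4 fell there by 1.02 ± 0.19 (adjusted p = 0.0126), a call lost without pair-fed replicate 1 (adjusted p = 0.0727) or ethanol-fed replicate 2 or 3 (0.0614 and 0.0527). Knockouts held 24.3, 29.5 and 22.8 CPM and then 13.9, 14.1 and 19.6 CPM, and Vgll4 fell by 0.66 ± 0.19 (adjusted p = 0.0305), a call kept in 23 of 31 alternatives and lost with TMM factors (0.0607), edgeR (0.0674), DESeq2 (0.0509), the compared libraries alone (0.131) and the Xist term (0.812). Leaving out pair-fed replicate 2, or ethanol-fed replicate 1 or 2, of the knockout ended this call too, with adjusted p = 0.110 to 0.131. In controls Vgll4 held 19.8, 20.1 and 24.3 CPM and then 16.0, 17.0 and 16.0 CPM, and was not called.

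Wwc1 (KIBRA), a scaffold that activates LATS kinases, fell on ethanol in controls and knockouts. It held 65.1, 53.8 and 54.9 CPM in pair-fed and 28.5, 31.5 and 38.3 CPM in ethanol-fed controls, and 48.5, 58.8 and 63.9 CPM in pair-fed and 33.0, 30.2 and 24.8 CPM in ethanol-fed knockouts. In overexpression it held 54.7, 48.7 and 58.9 CPM and then 56.3, 64.7 and 47.9 CPM, with overlapping ranges. Wwc1 fell by 0.81 ± 0.18 in controls (adjusted p = 0.0185) and 0.94 ± 0.18 in knockouts (adjusted p = 0.00319), and differed by 0.05 ± 0.18 in overexpression (adjusted p = 0.940). The difference of the overexpression response from the control response was 0.86 ± 0.25 (unadjusted p = 0.00297, adjusted p = 0.336), so Wwc1 was not called in that test. Ethanol-fed overexpression was higher than ethanol-fed knockout by 0.92 ± 0.18 (adjusted p = 0.0117, and 0.0665 without ethanol-fed overexpression replicate 2).

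The control call of Wwc1 was lost with edgeR (adjusted p = 0.0519), the compared libraries alone (0.0840) and the Xist term (0.137), and without pair-fed replicate 1 or 2 or ethanol-fed replicate 1 or 2 (0.0502 to 0.0875). The knockout call of Wwc1 was lost with the Xist term (adjusted p = 0.303). In both genotypes the sign held in every alternative run.

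Rassf1, which binds the MST kinases, held 33.0, 31.0 and 15.2 CPM in ethanol-fed knockouts, against 12.3, 11.3 and 8.88 CPM in pair-fed knockouts and 7.40, 9.95 and 10.3 CPM in ethanol-fed overexpression. It rose by 1.15 ± 0.27 on ethanol in knockouts (adjusted p = 0.0109) and was lower in ethanol-fed overexpression than in ethanol-fed knockouts, with a difference of -1.36 ± 0.27 (adjusted p = 0.0117). Both calls of Rassf1 were lost without ethanol-fed knockout replicate 1 or 2 (adjusted p = 0.0567 to 0.0680), and the second also without ethanol-fed overexpression replicate 1 (0.0519). The first had adjusted p = 0.585 with the Xist term and 0.0547 with the compared libraries alone.

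Fat1, an atypical cadherin upstream of the pathway, rose by 1.03 ± 0.26 on ethanol in knockouts (adjusted p = 0.0154), from 30.4, 19.0 and 14.1 CPM to 42.3, 37.5 and 47.7 CPM. Amot, the first angiomotin, rose by 1.28 ± 0.39 (adjusted p = 0.0444), from 20.0, 12.8 and 15.3 CPM to 49.1, 41.7 and 30.5 CPM. Without pair-fed knockout replicate 2 or 3, Fat1 had adjusted p = 0.0562 and 0.0781, and Amot 0.149 and 0.0990. Amot also lost its call without ethanol-fed knockout replicate 1 (0.146) or 2 (0.116), with no filter (0.0866), a pseudocount of 10 (0.0509), the replicate block (0.0557) and the barcode range as a block (0.0526), and kept it in 20 of 31 alternatives. Fat1 lost its call in the fit of the compared libraries alone (0.0517), and both genes lost it with the Xist term, at 0.727 for Fat1 and 0.690 for Amot. Tnik, a kinase of the MAP4K family that acts beside MST, was lower in pair-fed overexpression (0.757, 1.39 and 0.917 CPM) than in pair-fed knockouts (3.73, 6.41 and 4.70 CPM), with a difference of -1.54 ± 0.29 and adjusted p = 0.00937. The Tnik call was lost without pair-fed knockout replicate 2 (adjusted p = 0.0611) and with the Xist term (0.999).

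**Figure D4:**
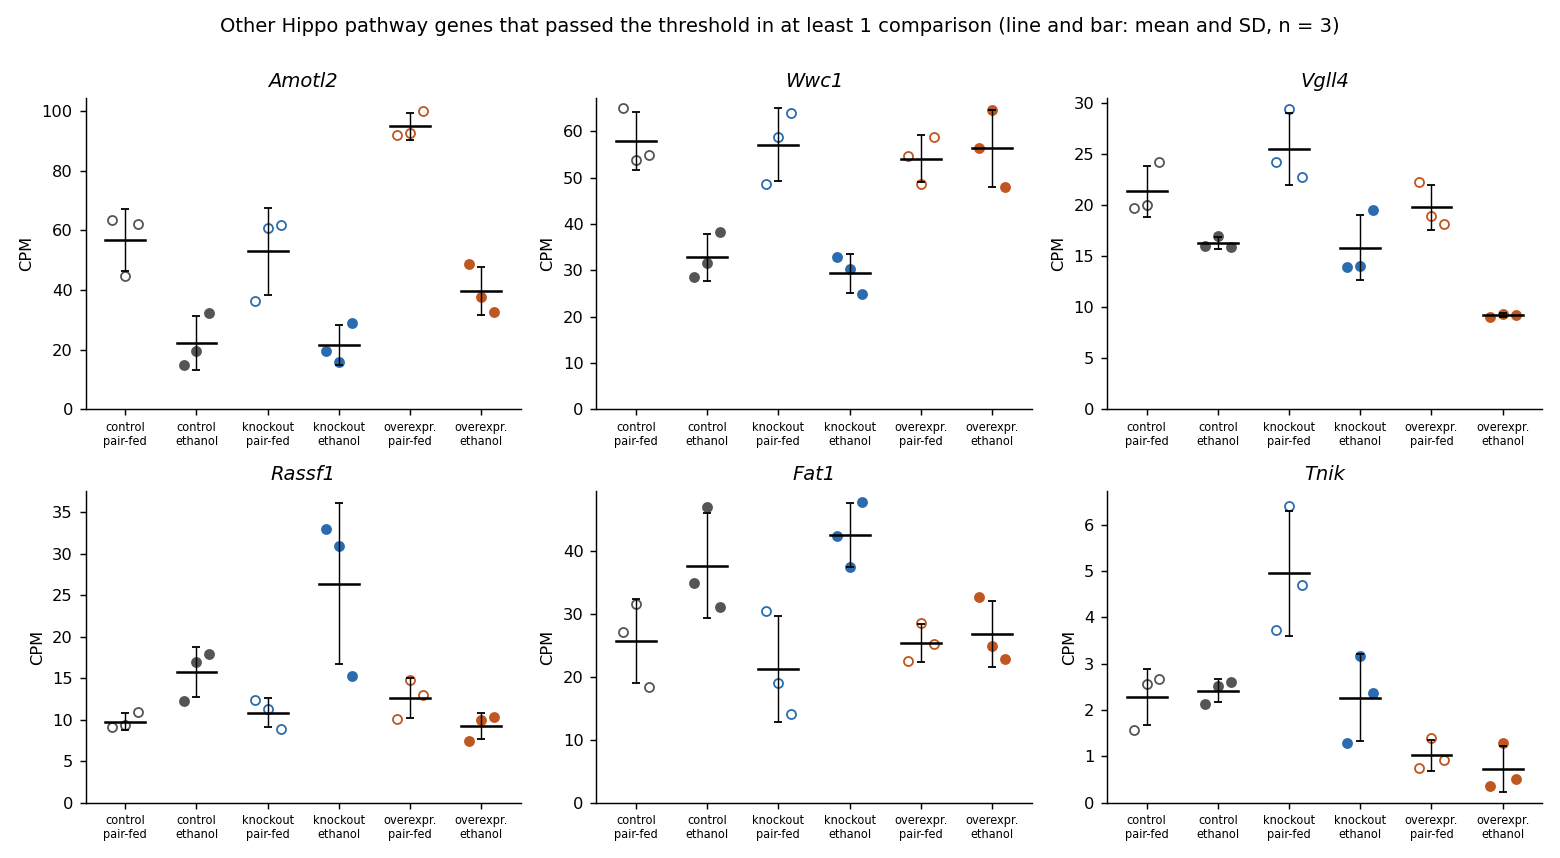
CPM of 6 further pathway genes that were called in at least 1 comparison, in each library, with open circles for pair-fed, filled circles for ethanol-fed, and the mean and SD of 3 libraries in black on axes from 0. Amotl2 is lower on ethanol in every genotype, Wwc1 in controls and knockouts, and Vgll4 is lowest in ethanol-fed overexpression at 9.03 to 9.39 CPM.

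A list of 22 genes commonly read as YAP targets had 19 that passed the filter. In knockout against control 0 of the 19 were called on either diet by limma. In overexpression against control 1 was called higher in pair-fed livers (Cyr61) and 0 in ethanol-fed livers, and in overexpression against knockout 1 higher and 1 lower on each diet. Ethanol called 1 lower in controls, 1 higher and 4 lower in knockouts, and 1 higher and 3 lower in overexpression. The shares of all genes called are those given for the wider list. Amotl2, Lats2, Ajuba and Ptpn14 are on both lists, so the ethanol calls of Amotl2 are counted in each.

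Cyr61 and Ctgf encode secreted matricellular proteins. Cyr61 held 15.7, 29.9 and 24.8 CPM in pair-fed overexpression against 8.93, 7.48 and 8.22 CPM in pair-fed controls. It rose by 1.37 ± 0.25 (adjusted p = 0.0279), a call lost without pair-fed control replicate 2 or 3 or overexpression replicate 2 or 3 (adjusted p = 0.114 to 0.220) with no filter (0.0607), with the barcode range as a block (0.0552), in the fit of the compared libraries alone (0.174) and with the Xist term (0.690). On ethanol the overexpression libraries held 9.21, 9.95 and 9.64 CPM and controls 4.28, 7.15 and 8.33 CPM, with a Cyr61 difference of 0.52 ± 0.25 (adjusted p = 0.569).

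Ctgf fell on ethanol in overexpression by 1.97 ± 0.42 (adjusted p = 0.0279), from 37.5, 49.7 and 21.1 CPM to 17.9, 3.50 and 7.41 CPM, and Cyr61 by 1.16 ± 0.25 (adjusted p = 0.0306). Leaving out 1 library ended the Ctgf call for pair-fed replicates 1 and 2 and ethanol-fed replicates 2 and 3 (adjusted p = 0.0969 to 0.139), and it was lost with no filter (0.0710) and edgeR (0.0515). It ended the Cyr61 call for pair-fed replicates 2 and 3 and each ethanol-fed replicate (0.0650 to 0.124), as did using no filter (0.0707). In these groups Yap1 itself overlapped, at 57.6 to 214.1 CPM when pair-fed and 106.4 to 143.7 CPM on ethanol. Lats2, the second LATS kinase, ran from 6.82 to 15.8 CPM and was called in no comparison, with its largest difference between 2 groups -0.68 ± 0.22 for ethanol in overexpression (adjusted p = 0.143).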

How the data were processed

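Ion AmpliSeq libraries of mouse liver RNA were read as the authors deposited them. The series table gives CPM, and the per-library files log2(RPM + 1) values written by ampliSeqRNA 5.10.1.2, per the file headers. Both held the same values, with a largest difference of 2.0e-06 on the log2 scale. No source used here names the aligner or the genome build. Whole read counts were recovered from the deposited CPM within 0.05 of a read for at least 99.996% of genes in each library. Genes reaching 1 CPM in 3 or more libraries were fitted as log2(CPM + 1) with limma 3.58.1 (lmFit, eBayes with trend, R 4.3.3) over all 18 libraries and 6 groups. P-values were adjusted by Benjamini-Hochberg over all genes tested, with a threshold of 0.05. edgeR 4.0.16 and DESeq2 1.42.0 on the recovered reads were alternatives, as were filters, pseudocounts, scalings, blocks, a term for Xist above Ddx3y, and leaving out each library. The means over diets or genotypes were added after the values were seen. The genes and lists were chosen with earlier results of these data known. Text names all 10 genes, genes of the wider list called within a diet or genotype, Cyr61, Ctgf, Amotl2, Lats2, and the 3 genes with the highest and the 3 with the lowest r with Yap1. Genes named beyond these are marker or pattern checks. The labels state no pairing by replicate number, and the main fit used none. The code was run on simulated data with the same spread setting for every gene and no Xist pattern, so that run does not test the calls given here.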

Additional observations from a re-analysis of the deposited data

How the results depend on the processing

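Each result was recomputed under 31 alternatives, and none reversed a called change. Of 150 changes of single members, 138 kept their side of the threshold in all of them, but most of the 150 were not called to begin with. Among the called ones, at least 1 alternative ended the call of Yap1 in pair-fed knockout against control and in pair-fed overexpression against knockout. It also ended for Wwtr1 in overexpression against knockout over both diets and for Lats1 in ethanol over all genotypes. The ethanol-fed calls of Yap1 were kept in all 31. For overexpression against knockout over both diets, 2 members called became 1 with no filter, with quantile normalization and with the Xist term, and 4 with DESeq2, and leaving out 1 library gave 1 to 3. For ethanol in knockouts, 0 became 1 with a filter of 10 CPM and 2 with TMM factors, array weights, edgeR or DESeq2, and 0 to 1 when a library was left out. For knockout against control in pair-fed livers, 1 became 0 with a pseudocount of 10, with the compared libraries alone and with the Xist term, and 0 to 1 when a library was left out. For pair-fed overexpression against knockout, 1 became 2 with array weights and DESeq2 and 0 with the Xist term. The Xist term also took ethanol over all genotypes from 1 to 0. That term rests on the 3 pair-fed control libraries, the only group in which the pattern varied. Losses with it do not separate the pattern from diet or genotype. DESeq2 gave 1 in place of 0 for overexpression against control in pair-fed livers and over both diets (0 to 1 when a library was left out), and 2 in place of 1 for ethanol-fed overexpression against knockout.

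With the replicate number as a block no count of members called moved. Genes called were 310 in place of 316 for ethanol in controls, 4 in place of 12 for ethanol-fed overexpression against control and 6 in place of 12 over both diets. Libraries with the same number correlated in their deviations from group means at -0.27 to 0.28 over 45 pairs, with a median of 0.03 and 6 over 0.1. Libraries with different numbers gave -0.40 to 0.46 over 90 pairs, with a median of -0.007 and 8 over 0.1. These values show no clear pairing by number, and pairing was not tested.

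Counts of all genes called moved more. They ran from 23 to 587 for ethanol in controls (main value 316), 0 to 2235 in knockouts (1160) and 57 to 505 in overexpression (135) over settings. For genotype contrasts they ran from 1 to 47 for ethanol-fed knockout against control (2) and higher still with array weights, 1 to 71 for ethanol-fed overexpression against control (12) and higher still with DESeq2, 1 to 95 in pair-fed overexpression against control (17) and 156 to 766 for ethanol-fed overexpression against knockout (220). Pair-fed overexpression against knockout ran from 0 to 353 (160). With TMM factors ethanol in controls called 168 higher and 122 lower in place of 120 and 196, in knockouts 671 and 577 in place of 481 and 679, and in overexpression 77 and 50 in place of 47 and 88. The cause was not tested. Counting reads alone gives a coefficient of variation of 4.96% (Lats1) to 17.4% (Tead1).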

Other observations

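The spread of each gene within groups was set beside the spread that counting reads gives. The coefficient of variation within groups was 9.16% for Lats1 against 4.96% from counting, and 13.7% against 11.5% for Stk4. It was 35.5% against 13.2% for Stk3 and 37.9% against 11.7% for Yap1. All 10 genes varied more between libraries of a group than counting gives, Stk4 by the smallest margin. In Yap1 the highest of the 18 libraries held 64.1 times the CPM of the lowest, and in Lats1 1.60 times.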
